A study of Mus musculus with 4 samples.

Results

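Genes that move protons and bicarbonate were described in the right testis of adult mice that had kept or lost the other testis. The set holds all genes whose symbol starts with Atp6v, Slc4a, Slc9a or Slc26a, or with Car followed by a digit, and it has 72 members among the 22073 genes of the deposited table. By family these are 23 genes named for the vacuolar proton pump (V-ATPase), 11 of Slc4, 11 of Slc9, 11 of Slc26 and 16 carbonic anhydrases. A prefix rule takes in some genes that transport nothing: Slc4a1ap encodes an adaptor protein, Slc9a3r1 and Slc9a3r2 encode scaffold proteins, and Atp6v1fnb is named for its neighbour Atp6v1f.

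Per the extraction protocol, poly(A) RNA was sequenced, although genomic DNA is given as the molecule in the labels. The mice were males of the outbred KM strain, with 2 libraries per group, each from a different mouse. The p-values therefore rest on the spread between 2 mice per group, together with spread that limma borrows from other genes. In the hemicastrated group the left testis had been taken out before puberty. The control mice were sham-operated alongside them and kept both testes. The right testis was collected at maturity in all mice, and the labels give no age in days. Growth and treatment notes count 3 animals in a group, while the design text and the samples give 2. Levels are FPKM, fragments scaled to transcript length and library size, so depth is unknown and precision is judged from the spread between libraries. The tissue label was checked on markers: all 10 germ cell markers were tested, as were 7 of 9 Sertoli and 7 of 7 Leydig markers, and 0 were called. At an unadjusted p under 0.05 in limma, 5 germ cell and 3 Sertoli markers were higher and 0 lower. In the Leydig list 2 were higher and 1 lower. Of all tested genes, 3.98% were higher and 6.52% lower at that threshold. Germ cell markers summed to 18344 and 19883 FPKM in control testes and 21087 and 20973 after hemicastration, Sertoli markers to 495 and 517 against 618 and 576, and Leydig markers to 1629 and 1528 against 1897 and 1795. Both hemicastrated sums were above both control sums in all 3 lists. The Leydig sum is mostly Insl3, and without it the list summed to 357 and 296 FPKM against 288 and 311, which overlapped, with a negative log2 difference in 5 of 7 markers. The part of these lists in the members' values was not tested. In a whole organ, fewer cells of a type and less RNA per cell cannot be told apart.

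The V-ATPase spends ATP to pump protons into lysosomes, into the acrosome of the sperm head and, in specialised epithelial cells of the epididymis and kidney, out of the cell. Its V1 sector in the cytosol splits ATP, its V0 sector in the membrane carries the protons, and several subunits exist as a common and a tissue-restricted isoform. Slc9 proteins exchange sodium or potassium for protons, and Slc4 and Slc26 proteins carry bicarbonate, chloride and other anions. Carbonic anhydrases turn carbon dioxide and water into bicarbonate and protons, which supplies both kinds of transport. In the male tract a low luminal pH and low bicarbonate keep sperm quiescent, and bicarbonate later starts motility through the soluble adenylyl cyclase.

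Promoter sequences are shown for a selection of the members that lay lower in both hemicastrated libraries. Slc9a3r1, Atp6v1c2, Car4 and Atp6v0e had an unadjusted p under 0.05 and an entry in the RefSeq table, and Atp6v1g3 and Slc26a3 were detected in control testes but had an entry of 0 in both hemicastrated libraries. The entries are windows of 300 bases around a RefSeq start (build GRCm38.p6), and 51 of the 72 members were matched by symbol. The windows are Slc9a3r1 at chr11:115163091-115163390 on the plus strand, Atp6v1c2 at chr12:17324681-17324980 on the minus strand, Car4 at chr11:84957504-84957803 on the plus strand, Atp6v0e at chr17:26676146-26676445 on the plus strand, Atp6v1g3 at chr1:138273488-138273787 on the plus strand, Slc26a3 at chr12:31437969-31438268 on the plus strand. Those of Atp6v1c2, Atp6v0e and Slc26a3 lie inside the span that GENCODE gives the gene. Capitals mark matches on either strand to 6 motifs, namely CACGTG (the E-box), TGACGTCA (the cyclic AMP response element), AGAACA (part of a steroid receptor element), TAAACA (the forkhead core), GGGCGG (the GC box) and TATAAA (the TATA box).
Slc9a3r1: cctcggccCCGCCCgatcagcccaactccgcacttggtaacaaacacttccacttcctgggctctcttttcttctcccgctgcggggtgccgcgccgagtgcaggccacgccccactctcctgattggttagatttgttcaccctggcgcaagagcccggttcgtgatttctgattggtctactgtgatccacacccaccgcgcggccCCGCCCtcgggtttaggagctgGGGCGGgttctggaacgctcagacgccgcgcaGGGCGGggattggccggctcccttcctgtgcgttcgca
Atp6v1c2: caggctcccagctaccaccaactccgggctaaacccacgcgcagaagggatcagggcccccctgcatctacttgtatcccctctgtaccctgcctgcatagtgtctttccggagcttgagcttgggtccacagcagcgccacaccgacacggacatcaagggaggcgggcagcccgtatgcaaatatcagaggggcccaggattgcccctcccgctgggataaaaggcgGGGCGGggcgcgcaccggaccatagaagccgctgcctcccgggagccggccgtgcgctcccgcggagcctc
Car4: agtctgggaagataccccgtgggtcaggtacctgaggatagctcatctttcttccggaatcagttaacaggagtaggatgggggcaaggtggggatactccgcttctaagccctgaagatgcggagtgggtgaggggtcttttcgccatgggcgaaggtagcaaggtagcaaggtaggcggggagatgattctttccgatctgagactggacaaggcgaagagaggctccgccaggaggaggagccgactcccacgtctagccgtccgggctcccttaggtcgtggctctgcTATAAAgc
Atp6v0e: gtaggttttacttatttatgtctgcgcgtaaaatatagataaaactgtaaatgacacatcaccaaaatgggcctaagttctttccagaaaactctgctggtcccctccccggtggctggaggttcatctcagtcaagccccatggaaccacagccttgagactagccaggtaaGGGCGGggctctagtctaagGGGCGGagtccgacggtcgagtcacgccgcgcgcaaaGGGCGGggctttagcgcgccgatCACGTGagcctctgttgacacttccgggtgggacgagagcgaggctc
Atp6v1g3: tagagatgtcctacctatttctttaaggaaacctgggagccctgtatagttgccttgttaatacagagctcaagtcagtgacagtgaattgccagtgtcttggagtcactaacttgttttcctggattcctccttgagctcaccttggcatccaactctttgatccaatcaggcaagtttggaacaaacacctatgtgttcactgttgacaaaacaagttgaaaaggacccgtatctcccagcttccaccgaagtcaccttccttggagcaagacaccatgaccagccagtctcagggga
Slc26a3: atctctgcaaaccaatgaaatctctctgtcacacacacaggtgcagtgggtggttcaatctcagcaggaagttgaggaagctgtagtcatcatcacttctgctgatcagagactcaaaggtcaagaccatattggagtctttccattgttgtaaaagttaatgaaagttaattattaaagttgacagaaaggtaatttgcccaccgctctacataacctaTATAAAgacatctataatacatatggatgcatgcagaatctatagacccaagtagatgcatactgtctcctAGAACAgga

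The window of Slc9a3r1 held 4 matches to GGGCGG, that of Atp6v0e 3 to GGGCGG and 1 to CACGTG, and that of Atp6v1c2 1 to GGGCGG. Car4 had 1 match to TATAAA, Slc26a3 had 1 to TATAAA and 1 to AGAACA, and Atp6v1g3 had none of the 6 motifs. Of the 63 promoters of members, 30 (47.6%) held GGGCGG, against 35.7% of all 32851 promoters of this length, and 7 (11.1%) held CACGTG, against 7.15%. Among the 20 promoters of V-ATPase genes, 12 (60%) held GGGCGG and 4 (20%) held CACGTG. These matches describe letters, not sites in use.

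Of the 72 members, 42 averaged 1 FPKM or more over the 4 libraries and were tested, 26 lay below that filter and 4 were listed at 0 in every library. None of the 42 was called lower or higher in limma at a Benjamini-Hochberg adjusted p under 0.05, where 1.19% of all 11343 tested genes were called lower and 0.106% higher. At an unadjusted p under 0.05, 6 members were lower and 0 higher, against 6.52% and 3.98% of all tested genes. Among them were Car3, Slc9a3r1, Atp6v1c2, Car4 and Atp6v0e. The median log2 difference (hemicastrated minus control mean of log2(FPKM + 1), so 1 is a doubling where levels are well above 1 FPKM) was -0.06 for the 42 members and -0.03 for all tested genes.

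The 95% interval of the difference lay within a log2 change of 1 either way for 37 of the 42 members, the exceptions including Car3, Car15, Atp6v1c2 and Slc26a10. The 2 libraries of a group differed by a median of 1.13-fold in control testes and 1.13-fold after hemicastration. Groups did not overlap, with both hemicastrated values below both controls, in 14 members, against 24.8% of all tested genes, and in the opposite direction in 3, against 16.3%. With group means also at least 2-fold apart, 4 members were lower (Car3, Atp6v1c2 and Car15 among them) and 0 higher, against 2.13% and 0.397% of all tested genes.

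**Figure D1:**
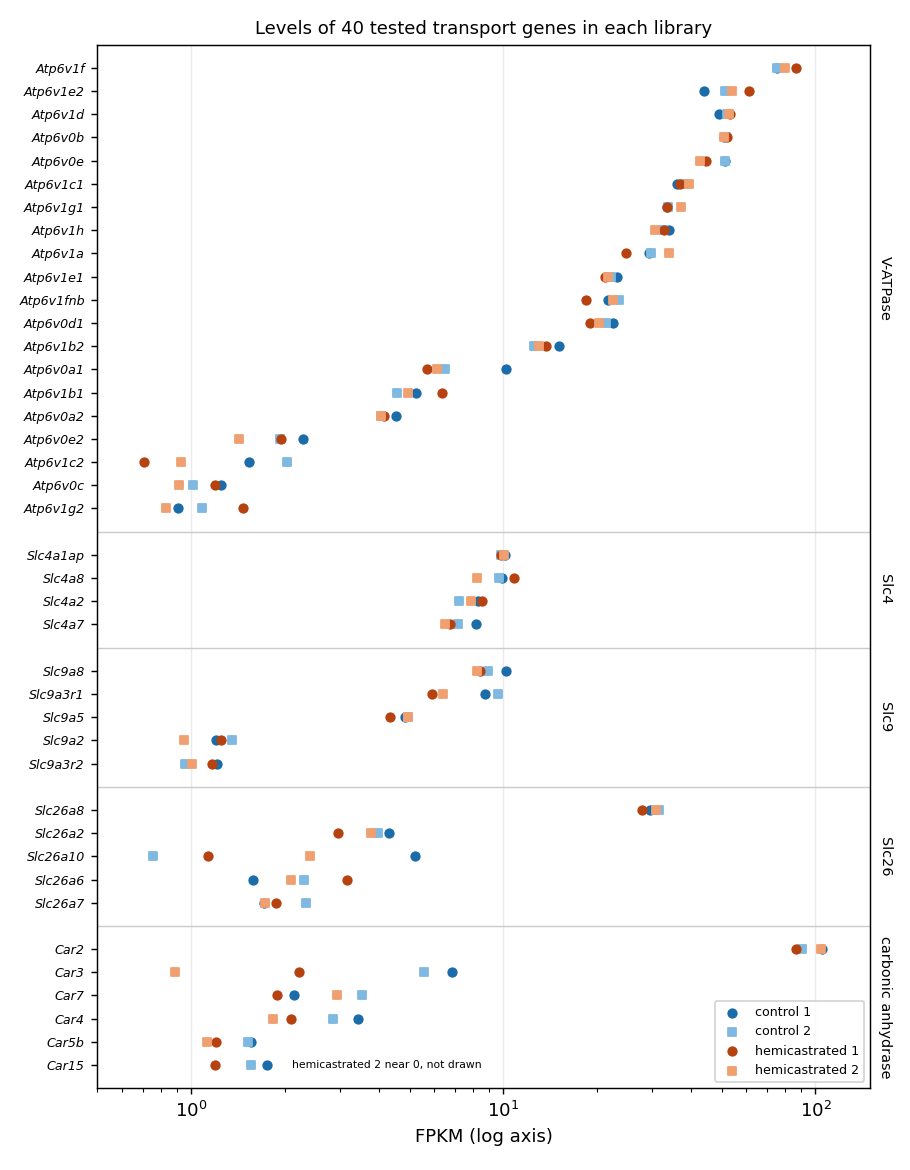
FPKM (log axis) of 40 tested members in the 4 libraries, grouped by family and ordered by mean level. Car2 lies highest, up to 105 FPKM, and the 4 points of Atp6v0b lie close together, while Car3, Slc9a3r1 and Atp6v1c2 have both hemicastrated points to the left of both controls; the near-0 value of Car15 in hemicastrated 2 is not drawn.

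Summed over its 23 genes, the V-ATPase family stood at 512 and 517 FPKM in control testes and at 519 and 518 after hemicastration. Of the 20 tested genes of this family, Atp6v1fnb included, 0 were called, 12 had a negative and 8 a positive log2 difference, and the median was -0.04. The highest was Atp6v1f, the F subunit of the central shaft, at 75.3 and 75.4 FPKM in control testes and 86.3 and 79.6 after hemicastration (log2 difference 0.14, 95% interval -0.07 to 0.34). Its value is uncertain, since 12.6% of the 50-base words of its longest transcript also occur in AC169506.3. The shaft subunit gene Atp6v1d was at 49.2 and 52.1 FPKM against 53.3 and 52.8, without overlap but with a log2 difference of only 0.07.

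The catalytic A subunit Atp6v1a was at 29.2 and 29.7 FPKM in control testes and at 24.7 and 33.8 after hemicastration. Here the hemicastrated libraries lay on either side of the controls. The regulatory H subunit Atp6v1h was at 34.0 and 32.5 FPKM against 32.6 and 30.7, and the C subunit Atp6v1c1 at 36.1 and 38.0 against 36.7 and 39.3. Both groups overlapped in these genes. Across the 12 tested V1 genes the median log2 difference was 0.05 and that of the 7 tested V0 genes was -0.15.

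In the membrane sector, the proteolipid c'' subunit Atp6v0b was at 51.0 and 51.6 FPKM in control testes and 52.0 and 51.1 after hemicastration (log2 difference 0.01, 95% interval -0.19 to 0.20). Its neighbour in level, the small e subunit Atp6v0e, was at 51.1 and 51.2 FPKM against 44.4 and 42.7. Both hemicastrated values were lower, at 0.851 times the control mean, and the difference did not pass the test (log2 difference -0.23, SE 0.08, adjusted p = 0.412 in limma). The d subunit Atp6v0d1, which joins the rotor to the shaft, was at 22.4 and 21.2 FPKM against 19.0 and 20.3, and the a1 subunit Atp6v0a1 at 10.2 and 6.49 against 5.68 and 6.11. The log2 difference of Atp6v0a1 was -0.41, with a 95% interval of -0.90 to 0.07, and control 1 stood apart from the other 3 libraries.

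Summing the genes of each subunit gave the order F, E, D, c'', e, C, G, H, A, d, B, a and c, from 79.2 FPKM for F and 74.7 for E down to 12.8 for a and 1.09 for c, as means of the 4 libraries. Between neighbours in this order, the 4 values overlapped for F and E, D and c'', c'' and e, C and G, H and A, and d and B. F was above E and C above G in each library, but shared words make the values of F and G uncertain. In the other pairs the order changed between libraries, so it is not settled. The a sum includes Tcirg1, an a subunit gene outside the symbol rule. The G sum is mostly Atp6v1g1, whose value is uncertain because 19.2% of its 50-base words also occur in Gm13453 and Gm12344. The c subunit gene Atp6v0c, which makes up most of the rotor ring, was at 1.24 and 1.012 FPKM against 1.19 and 0.912, so the groups overlapped. Its value is uncertain, because 12.2% of the 50-base words of its longest transcript also occur in the copies Atp6v0c-ps2 and Atp6v0c-ps1.

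Where a subunit has several isoforms, the common isoform took the largest share in all but the E subunit. Atp6v1e2, the E isoform of the testis, made up 65.6% and 69.9% of the summed E level in control testes and 74.3% and 71.4% after hemicastration. Its own level was 43.9 and 51.4 FPKM against 61.2 and 54.1 (log2 difference 0.27, SE 0.11, adjusted p = 0.487 in limma), while Atp6v1e1 was at 23.1 and 22.1 against 21.1 and 21.7. The shares of the groups did not overlap, and the difference in level did not pass the test. Atp6v1b1, the B isoform of proton-secreting cells, made up 25.8% and 26.6% of the B level in control testes and 31.6% and 27.6% after hemicastration, at 5.24 and 4.55 FPKM against 6.33 and 4.96. The common isoform Atp6v1b2 was at 15.1 and 12.5 FPKM against 13.7 and 13.0. The B shares did not overlap between the groups, while the levels of both B genes did. Shares were not tested.

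Other isoforms known from kidney and epididymal epithelium were minor here. Atp6v1c2 (ENSMUSG00000020566, chromosome 12, 17284721 to 17329359, minus strand, GRCm38) was at 1.53 and 2.02 FPKM in control testes and at 0.703 and 0.928 after hemicastration. This was 0.460 times the control mean, with no overlap (log2 difference -0.61, SE 0.16, adjusted p = 0.241 in limma). Its share of the C level was 4.06% and 5.05% in control testes and 1.88% and 2.31% after hemicastration. An exon of Atp6v1c2 overlaps the antisense gene Pdia6, which was at 61.1 and 61.6 FPKM against 62.5 and 54.4.

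Atp6v1g3 (ENSMUSG00000026394, chromosome 1, 138273738 to 138289462, plus strand), the G isoform of kidney and epididymis, was at 0.445 and 0.479 FPKM in control testes and listed at 0 in both hemicastrated libraries. It was below the filter. With no filter it was the single called member, among 18587 genes of which 0.629% were called lower and 0.0161% higher (log2 difference -0.55, adjusted p = 0.036 in limma). Atp6v0d2 was at 0.202 and 0.121 FPKM against 0.0221 and 0.0386, whereas Atp6v0a4, also an isoform of proton-secreting cells, was at 0.106 and 0.200 against 0.162 and 0.204. Of the other minor isoforms, Atp6v1g2 was at 0.903 and 1.08 FPKM against 1.46 and 0.827, and Atp6v0e2 at 2.27 and 1.92 against 1.94 and 1.43. Atp6v1c2, Atp6v1g3 and Atp6v0d2 were lower without overlap, as were 24.8% of all tested genes and 24.1% of all genes below the filter, and Atp6v1b1, Atp6v0a4, Atp6v1g2 and Atp6v0e2 overlapped.

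**Figure D2:**
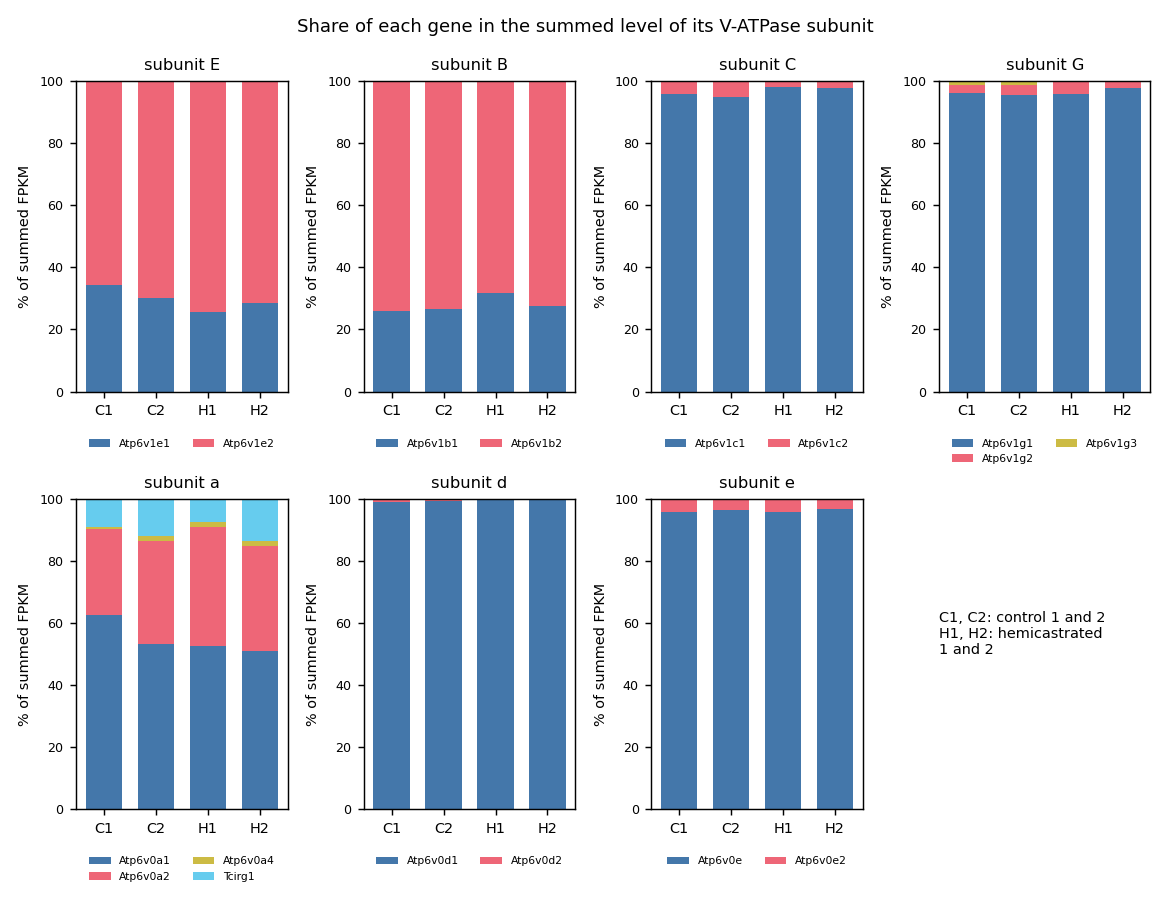
Stacked bars give the share (%) of each gene in the summed FPKM of its V-ATPase subunit, for control 1 and 2 (C1, C2) and hemicastrated 1 and 2 (H1, H2). Atp6v1e2 takes 65.6% to 74.3% of subunit E, Atp6v1c2 4.06% and 5.05% of subunit C in control testes against 1.88% and 2.31%, and Atp6v1g3 is present only in the control bars among these libraries.

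In the Slc9 family, which holds the sodium-proton exchangers and their scaffolds, no tested gene was called. The scaffold Slc9a3r1 (ENSMUSG00000020733, chromosome 11, 115163341 to 115181181, plus strand), which anchors Slc9a3 and other membrane proteins at the apical surface of epithelia, was at 8.75 and 9.57 FPKM against 5.90 and 6.40. Both hemicastrated values were below both controls, at 0.672 times the control mean, and the gene was not called (log2 difference -0.51, SE 0.12, adjusted p = 0.183 in limma).

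Slc9a3, the apical exchanger of kidney, efferent ducts and epididymis, lay under the filter at 0.172 and 0.321 FPKM in control testes. Among the hemicastrated libraries, the first listed it at 0 and the second at 0.0463 FPKM. The Golgi and acrosome exchanger Slc9a8 was the highest of the family, at 10.2 and 8.91 FPKM against 8.44 and 8.22 (log2 difference -0.18, SE 0.12, adjusted p = 0.678 in limma). The groups of Slc9a8 did not overlap, but control 2 and hemicastrated 1 were 8.91 and 8.44 FPKM.

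The plasma membrane exchanger Slc9a5 was at 4.83 and 4.93 FPKM in control testes and 4.34 and 4.95 after hemicastration. Slc9a2 was at 1.20 and 1.35 FPKM against 1.25 and 0.949, and the second scaffold, Slc9a3r2, at 1.21 and 0.951 against 1.16 and 1.003. The groups overlapped in these 3 genes. Of 7 tested Slc9 genes, 0 were called, 5 had a negative log2 difference and the median was -0.12. Below the filter, Slc9a4, Slc9a7 and Slc9a9 were at most at 0.592 FPKM in any library.

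In the Slc4 family of bicarbonate carriers 4 of 11 genes passed the filter, with Slc4a1ap, the adaptor, among them. None of the 4 was called, and all 4 had a log2 difference under 0.25 in size, which held for 80.4% of all tested genes. The chloride-bicarbonate exchanger Slc4a2, which mice need to form sperm, was at 8.31 and 7.19 FPKM in control testes and 8.54 and 7.89 after hemicastration (log2 difference 0.08, 95% interval -0.22 to 0.38), and an exon of it overlaps the antisense gene Fastk, at 46.6 and 46.5 FPKM against 49.8 and 43.7. The sodium-driven exchanger Slc4a8 was at 9.91 and 9.68 FPKM against 10.8 and 8.24, a log2 difference of -0.05. The sodium-bicarbonate cotransporter Slc4a7 was at 8.14 and 7.17 FPKM against 6.73 and 6.52, without overlap and with a log2 difference of -0.18 (SE 0.12, adjusted p = 0.676 in limma). The adaptor gene Slc4a1ap was at 10.1 and 9.83 FPKM against 9.795 and 10.1.

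The other 7 Slc4 genes were at most at 0.790 FPKM in any library. The red cell exchanger Slc4a1 was listed at 0 in both controls and at 0.0142 and 0.0125 FPKM after hemicastration, beside red cell markers (3 of 7 tested, 0 called) that summed to 40.3 and 35.9 FPKM in control testes and 36.6 and 25.4 after hemicastration. The cotransporter Slc4a5 was at 0.725 and 0.790 FPKM against 0.633 and 0.307, and Slc4a4 at 0.418 and 0.266 against 0.163 and 0.366.

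Slc26a8, the anion transporter of the sperm annulus, was the leading gene of the Slc26 family. It was at 29.5 and 31.5 FPKM in control testes and 27.7 and 30.7 after hemicastration, a log2 difference of -0.06 with a 95% interval of -0.30 to 0.18. It made up 67.7% and 74.3% of the family's summed level in control testes and 73.5% and 74.6% after hemicastration. The groups overlapped. Of 5 tested Slc26 genes, 0 were called, and the median log2 difference was -0.11. The sulfate transporter Slc26a2 was at 4.28 and 3.96 FPKM against 2.95 and 3.77 (log2 difference -0.24, SE 0.15, adjusted p = 0.651 in limma).

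The chloride-bicarbonate exchanger Slc26a6 was at 1.57 and 2.30 FPKM in control testes and 3.15 and 2.09 after hemicastration, and Slc26a7 at 1.71 and 2.33 against 1.86 and 1.73. Slc26a10 had the widest spread between the controls among the tested members, at 5.21 and 0.755 FPKM in control testes against 1.13 and 2.40. The controls alone differed 6.90-fold, and an exon of Slc26a10 overlaps the antisense gene B4galnt1, at 6.34 and 6.29 FPKM against 6.88 and 6.70. Slc26a3, the chloride-bicarbonate exchanger of gut and sperm (ENSMUSG00000001225, chromosome 12, 31390871 to 31473917, plus strand), was at 0.381 and 0.639 FPKM in control testes and listed at 0 in both hemicastrated libraries. It was below the filter, and with no filter it was not called (log2 difference -0.59, adjusted p = 0.158 in limma).

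Carbonic anhydrase RNA was mostly that of Car2, the fast cytosolic enzyme and the member with the highest mean level. Car2 was at 105 and 90.7 FPKM in control testes and 86.5 and 104 after hemicastration, which overlapped (log2 difference -0.04, 95% interval -0.34 to 0.26). It took 86.0% and 84.8% of the family's summed level in control testes and 89.6% and 92.8% after hemicastration. Without Car2 the family summed to 17.1 and 16.3 FPKM in control testes and to 10.04 and 8.08 after hemicastration. All 6 tested carbonic anhydrase genes had a negative log2 difference, as did 56.6% of all tested genes, and 0 were called.

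Car3 (ENSMUSG00000027559, chromosome 3, 14863512 to 14872523, plus strand), the slow cytosolic enzyme abundant in muscle and fat, had the largest log2 difference of the tested members. It was at 6.84 and 5.56 FPKM in control testes and 2.21 and 0.888 after hemicastration. The hemicastrated mean was 0.2497 times the control mean, with no overlap, and the gene missed the threshold (log2 difference -1.54, SE 0.26, 95% interval -2.17 to -0.91, adjusted p = 0.0618 in limma). It was called without hemicastrated 1 (adjusted p = 0.0035 in limma) and without hemicastrated 2 (adjusted p = 0.0333 in limma), but not without control 1 (adjusted p = 0.421 in limma) or control 2 (adjusted p = 0.285 in limma).

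Car4 (ENSMUSG00000000805, chromosome 11, 84957786 to 84966044, plus strand), anchored to the outer cell surface and known from epididymal epithelium, was at 3.42 and 2.85 FPKM in control testes and 2.08 and 1.82 after hemicastration. The hemicastrated mean was 0.623 times the control mean, without overlap (log2 difference -0.48, SE 0.15, adjusted p = 0.3004 in limma). Car15, another membrane-bound enzyme, was at 1.75 and 1.55 FPKM against 1.19 and an estimate of 1.58e-12, and its log2 difference was -0.84 with both hemicastrated libraries and -0.27 without hemicastrated 2. Without hemicastrated 1 Car15 was called (log2 difference -1.40, adjusted p = 0.0178 in limma), so this call rests on the near-0 value. Of the 50-base words of its longest transcript, 73.7% also occur in the overlapping gene Gm20518, which makes its value uncertain.

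The cytosolic Car7 was at 2.14 and 3.53 FPKM in control testes and 1.88 and 2.94 after hemicastration, and the mitochondrial Car5b at 1.55 and 1.52 against 1.20 and 1.12. Car7 overlapped between the groups, and Car5b did not (log2 difference -0.23, adjusted p = 0.634 in limma). Among the members below the filter, the membrane enzymes Car12 and Car14 and the cytosolic Car1 and Car13 were at most at 0.580 FPKM in any library. Car11, a related protein without enzyme activity, was at 0.0335 and 0.121 FPKM in control testes and 0.289 and 0.338 after hemicastration. Car5a, Car6, Car9 and Car10 were listed at 0 in all 4 libraries.

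Of the 26 members between 0 and the filter, 6 lay lower without overlap and 6 higher, against 24.1% and 12.3% of the 7244 genes in that range. Their mean level was at most 0.614 FPKM. The 6 lower ones were Atp6v0d2, Atp6v1g3, Slc26a3, Slc4a5, Slc9a3 and Slc9a9, and the 6 higher ones were Car11, Slc26a4, Slc4a1, Slc4a11, Slc4a9 and Slc9a4.

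**Figure D3:**
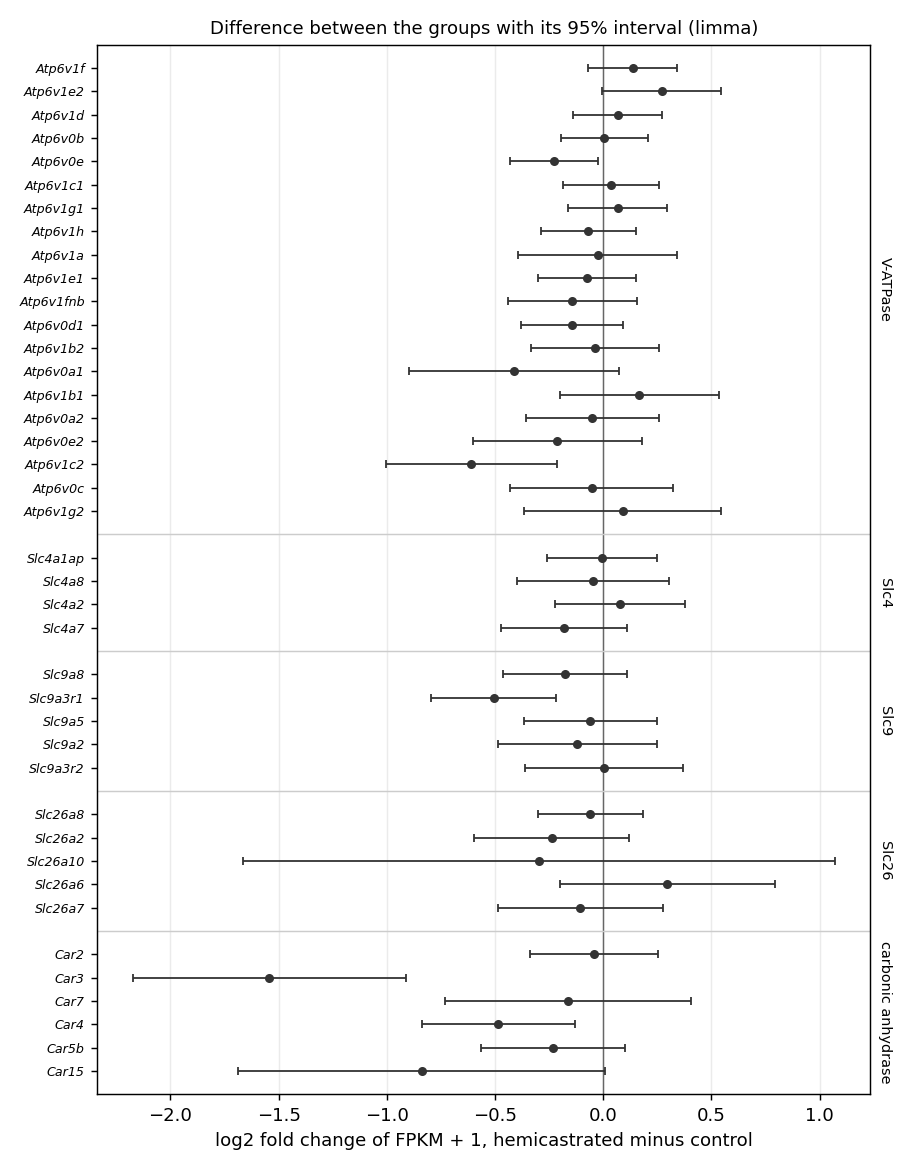
Log2 difference (hemicastrated minus control, FPKM + 1) of 40 tested members, with the 95% interval from limma as bars. The intervals of Car3, Slc9a3r1, Atp6v1c2, Car4 and Atp6v0e lie below 0, while those of the Slc4 genes and of most pump genes are narrow and span it; no tested member passed the adjusted threshold.

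A list of 49 other genes of proton and bicarbonate handling, outside the symbol rule, had 48 in the table and 33 tested. Of these, 0 were called and the median log2 difference was -0.05. The difference was negative in 20 (60.6%), against 56.6% of all tested genes. At an unadjusted p under 0.05, 4 (12.1%) were lower and 0 higher, against 6.52% and 3.98% of all tested genes. The 4 with the highest mean were close between the groups. The chloride and bicarbonate channel gene Best1 was at 77.3 and 77.2 FPKM in control testes and 70.7 and 78.6 after hemicastration, the sperm exchanger Slc9b1 at 51.5 and 54.4 against 52.6 and 53.9, and the bicarbonate-stimulated adenylyl cyclase Adcy10 at 49.6 and 58.9 against 54.5 and 58.2. Rogdi, a partner of the pump's assembly factors, was at 44.4 and 56.2 FPKM against 54.8 and 56.8.

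The 4 lower genes, named after their values were seen, were Clcn5, Atp6ap1, Atp6ap2 and Ano1. Clcn5, the chloride-proton exchanger of endosomes, was at 1.98 and 2.34 FPKM in control testes and 0.536 and 0.777 after hemicastration (log2 difference -0.93, SE 0.16, adjusted p = 0.0601 in limma). The pump's accessory proteins Atp6ap1 and Atp6ap2 were at 8.91 and 8.62 FPKM against 5.48 and 5.94, and at 8.06 and 7.21 against 5.07 and 5.33. Neither overlapped between the groups, and neither was called (adjusted p = 0.142 and 0.221 in limma). The chloride channel Ano1 was at 3.62 and 3.75 FPKM against 2.55 and 2.15, also without overlap. The sperm exchanger Slc9c1 was at 14.6 and 14.0 FPKM against 17.9 and 15.9, and the chloride and bicarbonate channel Cftr at 0.957 and 1.32 against 1.05 and 1.28.

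Of 13 markers of the epididymal epithelium, 5 were tested and 3 fell (Crisp1, Adam7 and Rnase9), where 1.19% of all tested genes were called lower. Rnase10, also tested, was at 2.02 and 1.28 FPKM in control testes and 1.59 and 1.70 after hemicastration, which overlapped. The list summed to 609 and 852 FPKM in control testes and 27.7 and 29.9 after hemicastration, or, without Crisp1, to 64.6 and 66.03 against 27.7 and 29.9. The hemicastrated sums were mostly Aqp9, which was at 35.8 and 31.0 FPKM in control testes and 25.6 and 27.3 after hemicastration. Aqp9 was not called (log2 difference -0.32, adjusted p = 0.356 in limma). Rnase9, a secreted epididymal protein, was at 6.59 and 11.5 FPKM in control testes, against 0 as listed for hemicastrated 1 and 0.0490 for hemicastrated 2. Lcn5, Lcn8 and Lcn10 were listed at 0 in all 4 libraries.

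The list for clear and narrow cells, the proton-secreting cells of the epididymis, had 2 of 6 genes tested and 0 called. It summed to 20.6 and 17.8 FPKM in control testes and 16.4 and 19.7 after hemicastration, mostly the ammonia transporter Rhcg, and without Rhcg to 3.91 and 3.09 against 2.96 and 2.26. Below the filter, 4 of the 6 genes were lower without overlap (Foxi1, Tfcp2l1, Dmrt2 and Bsnd, named after their values were seen). The share was 24.1% among all genes below the filter and above 0. These 4 genes had a mean of at most 0.523 FPKM, and the 2 tested genes, Rhcg and Kit, overlapped between the groups. Foxi1, the defining factor of clear and narrow cells, drives pump genes in them. It was at 0.150 and 0.466 FPKM in control testes and listed at 0 in both hemicastrated libraries. Any link between Foxi1 and the members was not tested. The efferent duct list had 4 of 10 genes tested and 1 that fell, Ptgds, and without Ptgds it summed to 13.0 and 15.0 FPKM against 8.73 and 9.27. In it the endocytic receptor Lrp2, named after its values were seen and below the filter, was at 1.81 and 1.89 FPKM against 0.0755 and 0.0594. Of the rest of this list, Pax2, Pax8, Emx2, Ptgds and Aqp1 were also lower without overlap. Lhx1, Ovgp1, Cubn and Tppp3 overlapped between the groups. The share lower without overlap was 24.8% of all tested genes and 24.1% of all genes below the filter and above 0.

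Smooth muscle genes (9 of 10 tested, 5 fell) summed to 322 and 294 FPKM in control testes and 218 and 241 after hemicastration, and without Actg2 to 103 and 81.2 against 34.2 and 31.6. The adipose list had 3 of 7 genes tested and 0 called, and summed to 21.3 and 12.3 FPKM against 6.17 and 7.72, or without Adipoq to 15.5 and 5.90 against 0.916 and 1.71. Its lipid carrier Fabp4 was at 7.19 and 2.60 FPKM against 0.298 and 0.455 (log2 difference -1.98, adjusted p = 0.0860 in limma), and Adipoq was at 5.78 and 6.39 against 5.25 and 6.01. Macrophage markers (6 of 8 tested, 0 called) summed to 54.8 and 52.2 FPKM against 47.0 and 40.8. Without Lyz2, the highest of them, they summed to 26.4 and 23.2 FPKM against 25.9 and 19.996, which overlapped. Of the 6 tested macrophage markers, 4 had a negative and 2 a positive log2 difference. Endothelial markers (2 of 7 tested, 0 called) summed to 10.8 and 9.02 FPKM against 9.08 and 8.91. The part of all these marker lists in the lower values of Car3, Slc9a3r1, Atp6v1c2, Car4, Atp6v1g3, Slc26a3 and Slc9a3 was not tested.

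**Figure D4:**
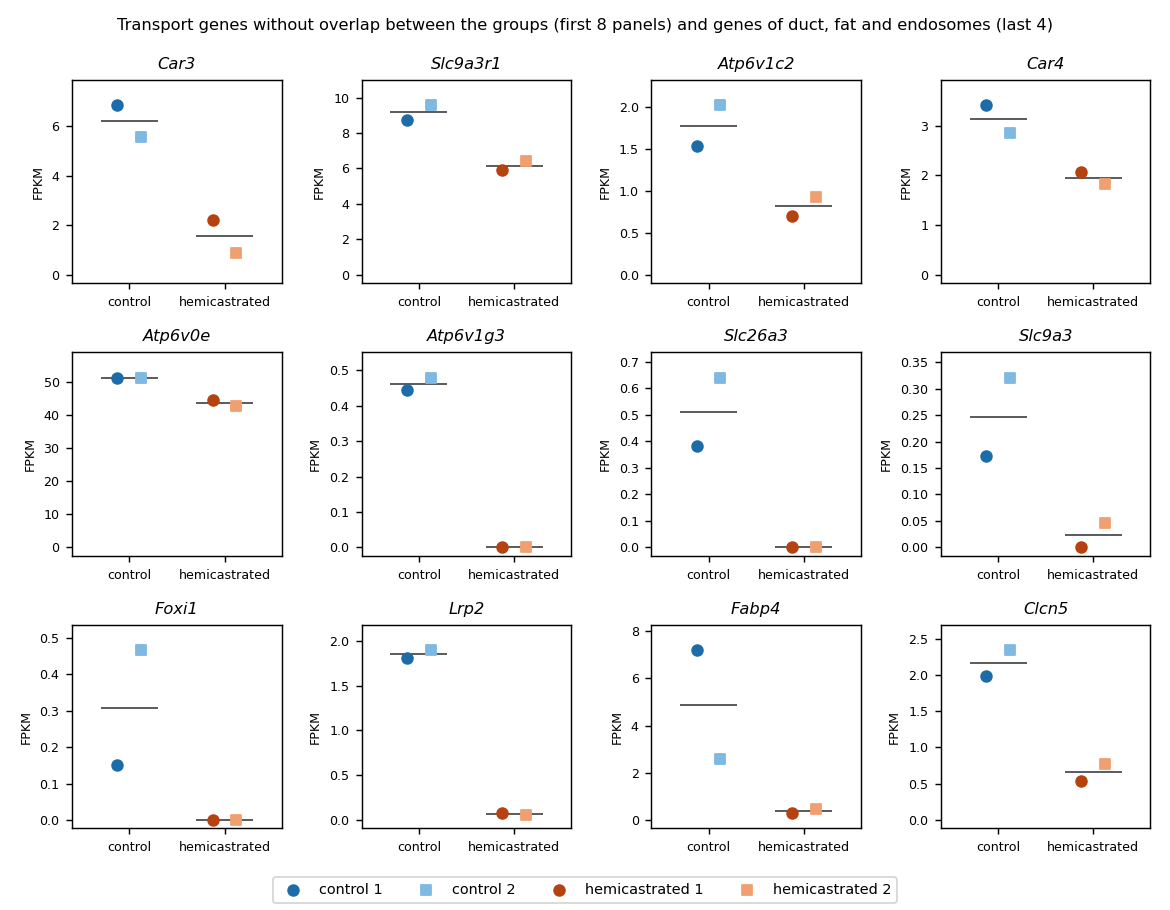
FPKM (linear axes that include 0, points are libraries, lines are group means) of 8 members and 4 other genes. In all 12 panels both hemicastrated points lie below both control points. The genes shown were picked from those lower without overlap, so the shared direction follows from that choice. Of the 42 tested members, 14 were lower without overlap, 3 were higher and 25 overlapped. Atp6v1g3, Slc26a3 and Foxi1 are listed at 0 in both hemicastrated libraries.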

How the data were processed

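RNA of the right testis was measured in 2 control and 2 hemicastrated mice. The values are FPKM per Ensembl gene, as deposited by the authors, per the file headers. Per the submitters' processing notes, Cufflinks 2.2.1, TopHat2 2.0.11 and build GRCm38 were used, with no role named. Which annotation was quantified is not stated there. No step that marks the strand is described, so reads of 11 tested members and their antisense partners cannot be told apart. Depth is unknown, and an exact 0 can be a failed estimate.

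Symbols and positions came from GENCODE M21 (GRCm38), which named 21806 of 22073 identifiers. Groups came from the labels. FPKM plus a pseudocount of 1 was put on the log2 scale, genes averaging 1 FPKM or more were tested with limma 3.58.1 in R 4.3.3 (variance trend, no covariate, two-sided), and p-values were adjusted by Benjamini-Hochberg over all 11343 genes. The smallest two-sided p of an exact permutation of 2 against 2 libraries is 0.333, and limma therefore borrows the spread from other genes. Simulated data for the same 11343 genes had shifts of 1 and 2 in log2(FPKM + 1). Recovery was 74.85% at a shift of 1 and 98.7% at a shift of 2, with 5.76% false calls. Near 1 FPKM such shifts are more than 2-fold and 4-fold in FPKM, so recovery of those folds in low members was not tested. The simulated spread was drawn from the limma fit, so departures of the real data from that fit were not covered.

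Members given in full were the up to 3 tested genes per family with the smallest p and no overlap, and the up to 3 with the highest mean. The members, lists and rules were chosen with earlier results of these data known. The values of 2 tested Slc9 members are not reported here, though counts include them. Alternatives were pseudocount, filters, scaling, trend, robust fitting, a replicate block and leaving out each library.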

Additional observations from a re-analysis of the deposited data

How the results depend on the processing

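The count of called lower members, 0 with all 4 libraries, was 1 with no filter (Atp6v1g3) and ranged from 0 to 2 when a library was left out (Car3 without either hemicastrated library, Car15 without hemicastrated 1). The lone library left in such a fit is assumed to vary like the other group. The labels number the libraries of both groups, but nothing states that a number marks a shared litter or day, and the deviations of same-numbered libraries had a correlation of 0.0137 over the tested genes. With the replicate block 1 member was called lower, Car3 (limma adjusted p = 0.00245), and all genes called went from 147 to 197; that count was 70 at a mean of at least 5 FPKM, 96 without control 1 and 78 without control 2. The count of higher members was 0 in every setting run. Members without overlap, 14 lower and 3 higher, were 4 and 0 with means at least 2-fold apart, and 7 lower at a mean of at least 5 FPKM, where fewer are tested. They were 9 higher with no filter, and ranged from 19 to 23 lower and from 8 to 10 higher when a library was left out, which by construction favours non-overlap.

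The sign of the difference turned in 14 cases, none of them called. Over the fits that each left out a library, the log2 difference ranged from -0.17 to 0.091 for Car2 and from -0.43 to 0.10 for Car7. It ranged from -1.21 to 0.62 for Slc26a10, from -0.13 to 0.013 for Slc26a8 and from -0.023 to 0.012 for Slc4a1ap. The range was -0.015 to 0.17 for Slc4a2, -0.22 to 0.13 for Slc4a8 and -0.14 to 0.018 for Slc9a5. Under quantile normalization the difference was 0.039 for Slc4a1ap and 0.0016 for Slc9a5. The cause was not tested. Of the other values of the members given in full, 225 kept their direction and side of the threshold and 4, those of Car3 and Car15, became called. The difference of Car15 was -2.28 with a pseudocount of 0.1. Unknown depth leaves the members under 1 FPKM without a detection limit.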
